A study of Drosophila melanogaster with 3 samples.

Results

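The genes described here encode putzig itself and the proteins with which putzig is known to work: pzg, Dref, Trf2 and the 4 genes of the nucleosome remodelling factor NURF, E(bx), Iswi, Nurf-38 and Caf1-55. They were chosen by name, 7 of the 13945 protein-coding genes on the chromosomes covered, and each was read at all of its annotated transcription start sites (TSSs; Ensembl BDGP6). The study mapped putzig by chromatin immunoprecipitation and sequencing (ChIP-seq) in 3 biological replicates of 1 group, so it holds no contrast between conditions. The embryos were Drosophila melanogaster of the strain pzg-GFP, males and females pooled, aged 0 to 24 h, and carried putzig with GFP at its C-terminus. The labels do not say whether an untagged pzg gene was still present, how many copies of the pzg promoter the embryos carried, or whether the control chromatin came from the same line. The library descriptions call each sample an input control, against the antibody and assay fields. The samples were treated as putzig ChIP-seq, and the label conflict was not resolved.

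Putzig, also called Z4, is a zinc finger protein of polytene interbands. It was found in a complex with Trf2, a relative of the TATA-binding protein that works at promoters without a TATA box, and with Dref, which binds the DNA replication-related element (DRE) upstream of replication and growth genes. The same complex held subunits of NURF, in which the ATPase Iswi slides nucleosomes, E(bx) (NURF301) is the large scaffold subunit that reads histone tails, Caf1-55 binds histones and Nurf-38 is an inorganic pyrophosphatase.

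All 7 genes carried putzig at a start. A gene was called bound when a summit of the reproducible peak list lay within 250 bp of one of its TSSs, and by that rule 42.6% of all protein-coding genes were bound. With the 6522 strongest peaks of replicate 1, 2 or 3 alone, 7 of 7 genes were bound each time, against 42.4%, 42.3% and 41.7% of all protein-coding genes. Over all 3 replicates together the count was 7 of 7 against 39.2%, and with entries of any strength 7 of 7 against 47.0%. The reproducible peak itself was among the strongest of all 3 replicates for 7 of 7 genes, as it was for 90.7% of bound protein-coding genes. These are counts of 7 genes picked because they are putzig partners, and with a single group no test was made. At the level of single starts, 8 of their 9 distinct TSSs had a summit, against 36.3% of all distinct protein-coding TSSs. The exception was the downstream start of Trf2. The 2 starts of Nurf-38 were served by the same summit, so the count by starts is not separate from the count by genes.

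The promoters at 4 of these summits are printed on the strand of the gene from the RefSeq genome (dm6). They show the start and, at Dref, E(bx) and Caf1-55, copies of the core CGATA. The pzg stretch holds none, and the promoters of Iswi and Nurf-38, the genes with a full DRE, are not printed. Each stretch lies within 100 bp of the summit and stops after at most 15 bases of annotated untranslated sequence on either side. Capitals mark CGATA or, on the other strand, TATCG, the core shared by the DRE and the site of the boundary factor BEAF-32. The pzg stretch (chr3L:21285948-21286110, plus strand) has the pzg start at base 152, the Dref stretch (chr2L:9967215-9967314, minus strand) has its start at base 86, the E(bx) stretch (chr3L:246902-247102, minus strand) at base 191 and the Caf1-55 stretch (chr3R:15225393-15225590, plus strand) at base 184.
pzg: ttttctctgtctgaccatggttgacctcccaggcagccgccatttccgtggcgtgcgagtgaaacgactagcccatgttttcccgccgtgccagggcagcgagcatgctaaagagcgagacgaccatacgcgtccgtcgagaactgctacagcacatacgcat
Dref: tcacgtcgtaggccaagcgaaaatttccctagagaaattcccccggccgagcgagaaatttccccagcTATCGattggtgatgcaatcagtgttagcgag
E(bx): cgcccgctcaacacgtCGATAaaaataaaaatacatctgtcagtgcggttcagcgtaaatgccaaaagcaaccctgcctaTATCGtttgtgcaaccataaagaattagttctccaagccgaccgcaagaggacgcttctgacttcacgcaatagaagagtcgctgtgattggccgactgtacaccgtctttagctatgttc
Caf1-55: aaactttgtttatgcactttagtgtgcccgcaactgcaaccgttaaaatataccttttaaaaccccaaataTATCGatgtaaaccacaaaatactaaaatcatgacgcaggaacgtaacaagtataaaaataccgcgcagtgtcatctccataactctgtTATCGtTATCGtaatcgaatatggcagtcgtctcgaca
The only CGATA near the pzg summit lies beyond that stretch, in the 5′ untranslated region (UTR) of the neighbour CG12974 (chr3L:21285910-21285934). The only one near the Trf2 summit lies in the Trf2 5′ UTR (chrX:8409294-8409318). Both sites are given with 10 bases to each side.
pzg site: ataattacgtTATCGtaatgaacgg
Trf2 site: gaagaagacgTATCGtgtgtgctca

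The CGATA core was present within 100 bp of the summit at all 7 genes. The share was 51.6% over all reproducible summit windows of the same length and 57.8% over the strongest summits of bound protein-coding genes. Searches covered both strands, so a CGATA may read TATCG in print. The copies numbered 1 each at pzg, Dref and Trf2, 2 at E(bx) and 3 each at Iswi, Nurf-38 and Caf1-55. At Iswi and Nurf-38 they include the 2 overlapping copies within a DRE, and at Caf1-55 a pair stands 21 and 15 bp upstream of the start. The full DRE, TATCGATA, which reads the same on both strands and contains CGATA, occurred at 2 of 7 genes, Iswi and Nurf-38. It occurred in 14.5% of windows and at 17.4% of bound protein-coding genes. Its centre lay 44 bp upstream of the Iswi summit and 26 bp upstream of the Nurf-38 summit. Dref, the gene of the DRE-binding factor itself, had no full DRE within 250 bp of its summit, the nearest in the genome being 1326 bp away. Its promoter instead held ATCGATA, 1 letter short of a DRE, 29 bp upstream of the summit. ATCGATA, a motif chosen after these windows were seen, was present at 4 of 7 genes, Dref, Iswi, Nurf-38 and Caf1-55. It occurred in 26.6% of windows and at 31.6% of bound protein-coding genes. At Caf1-55 its centre lay 26 bp upstream of the summit. At pzg, Trf2 and E(bx) the core occurred without ATCGATA, and the nearest DRE was 4459, 1903 and 311 bp from the summit. For these motifs, as for the other promoter elements, 7 windows are too few to read a difference from the share over all windows. Motif 1 (GGTCACAC, in 12.7% of windows), Motif 7 (CAGCGCTA, 0.552%) and the E-box CAGCTG (18.6%) were at none of the 7 summits, and TATAAAA (11.6%) was at Caf1-55 alone, 25 bp downstream of its summit. With a window of 50 bp, CGATA was present at 5 of 7 genes against 39.1% of windows and 44.8% of bound protein-coding genes. With 250 bp it was present at 7 of 7, against 69.5% and 73.3%. A match describes these letters and does not show that a factor binds them.

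The peaks of the 7 genes differed widely in strength. Peaks were ranked by the deposited signal within each list, 1 being the strongest, because the scale of the signal is not named and differs between lists. In the reproducible list Caf1-55 ranked 162, pzg 254, E(bx) 509, Iswi 531, Dref 1172, Trf2 1976 and Nurf-38 3041 of 6522. Only Nurf-38, with a signal of 1169, lay below the median of all bound protein-coding genes, 1517. All 7 lay above the median of the reproducible list, 1077, as did 66.5% of bound protein-coding genes. The median over the 7 genes was 3488. Averaged over the replicates, each peak's rank as a percentage of the 30000 entries of its list was 0.638 ± 0.262 for Caf1-55, 1.13 ± 0.601 for pzg, 1.72 ± 0.408 for Iswi, 1.80 ± 0.179 for E(bx), 4.66 ± 2.22 for Dref, 6.57 ± 0.401 for Trf2 and 9.68 ± 2.88 for Nurf-38 (SD, n = 3 each). Of the 6 neighbouring pairs in this order, 5 had overlapping ranges over the replicates. The exception lay between E(bx), whose lowest placing was 601, and Dref, whose highest was 921. Caf1-55, pzg, Iswi and E(bx) thus ranked above Dref, Trf2 and Nurf-38 in each of the 3 replicates. Within the former set Caf1-55 ranked first in all 3 replicates, although its range over the replicates overlapped that of pzg. Within the latter Trf2 ranked above Nurf-38 in all 3, by 1931 against 1936 in replicate 3, while Dref ranked above both in replicates 1 and 2 and below both in replicate 3.

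**Figure D1:**
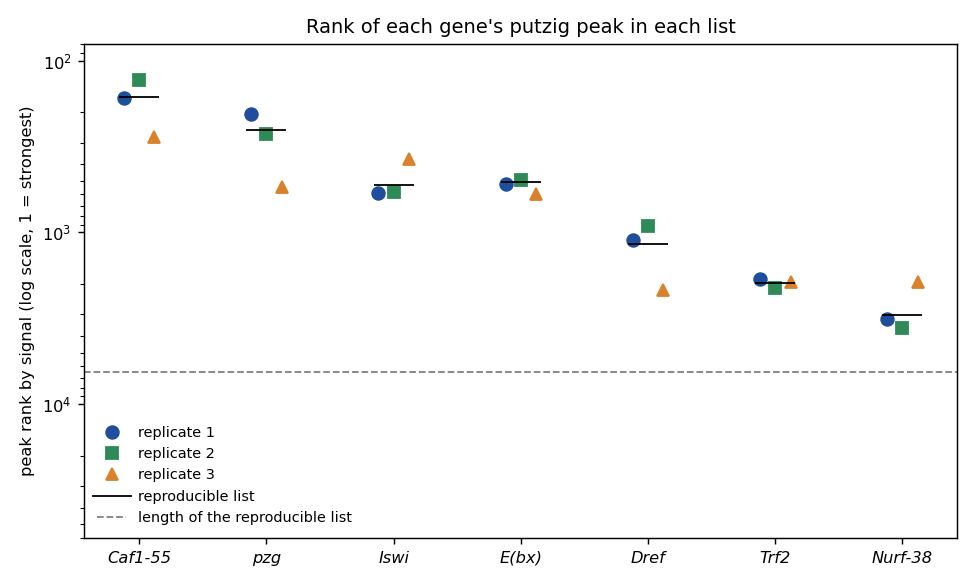
Rank by signal (vertical log axis, strongest at the top) of the peak at each gene's start in the 3 replicate lists (points) and the reproducible list (bars). Caf1-55, pzg, Iswi and E(bx) lie at ranks 130 to 601 and Dref, Trf2 and Nurf-38 at 921 to 3602, all above the dashed line at 6522.

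**Figure D2:**
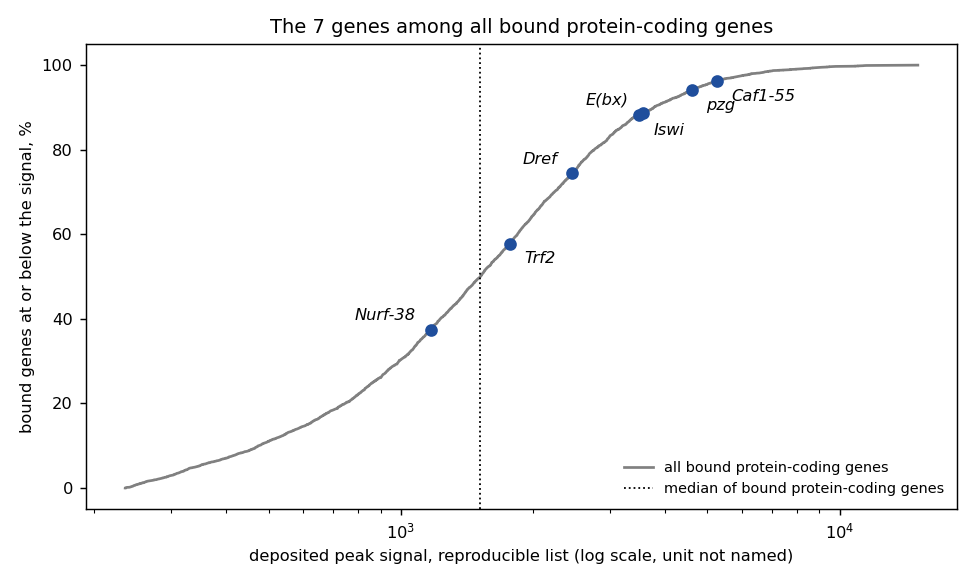
Cumulative share of the 5939 bound protein-coding genes (vertical axis, %) by deposited signal in the reproducible list (log axis), with the 7 genes as points. Nurf-38 lies left of the dotted median of 1517, the other 6 to its right.

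Putzig stood at its own promoter. The pzg gene (FBgn0259785, 3L from 21286099 to 21290310, plus strand) has 1 annotated start for both of its transcripts. Its reproducible peak ran from 21285543 to 21286461 and was 919 bp wide, against a median of 424 bp in the list. The peak ranked 205 in replicate 1, 268 in replicate 2 and 544 in replicate 3, with signals of 2208, 1775 and 588. The summits lay 112, 90 and 84 bp upstream of the start in replicates 1, 2 and 3, a mean offset of -95.3 ± 14.7 bp (SD, n = 3), where negative values are upstream. Replicate 3 placed the peak lowest, and all 3 placed its summit upstream. The pzg start faces that of CG12974, 137 bp away on the other strand. The reproducible summit lay in the gap between them, 89 bp upstream of pzg and 48 bp upstream of CG12974, so the peak cannot be assigned to pzg alone. No reproducible summit lay within the gene body.

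The gene of Dref shared its peak with a ribosomal protein gene. Dref (FBgn0015664, 2L from 9964147 to 9967229, minus strand) starts 84 bp from RpL13, a gene of the large ribosomal subunit that runs the other way. The peak (9966884 to 9967521, signal 2457) had its summit 15 bp inside the Dref 5′ UTR and 99 bp upstream of the first RpL13 start. Its rank was 1113, 921 and 2161 in replicates 1, 2 and 3, with signals of 1146, 1105 and 242. The summit fell 28 bp inside Dref in replicate 1 but 10 and 8 bp upstream of it in replicates 2 and 3. Which side of the Dref start the summit takes therefore differed between replicates, with a mean offset of 3.33 ± 21.4 bp (SD, n = 3), and without replicate 1 the mean was -9.00 bp. A second reproducible summit lay beyond the 3′ end of Dref, 35 bp upstream of a start of the next gene, CG5850. It was weaker, ranking 4686 in the reproducible list and 4622, 5178 and 4244 in the replicates.

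A summit that also lay within 250 bp of another coding gene's start was found at 3 of the 7 genes, pzg, Dref and Caf1-55, against 39.8% of all bound protein-coding genes. In each case the neighbour lies on the other strand, head to head. In the reproducible list, the summits of 6 genes lay upstream of the nearest start of the gene. So did those of 86.4% of bound protein-coding genes, and Dref was the exception. In replicates 1 and 3 the Nurf-38 summit was nearer to the start at 24561087 and lay 16 bp inside it. The peaks of 6 genes were wider than the list median of 424 bp, against 50.5% of bound protein-coding genes, Nurf-38 with 395 bp being the exception.

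**Figure D3:**
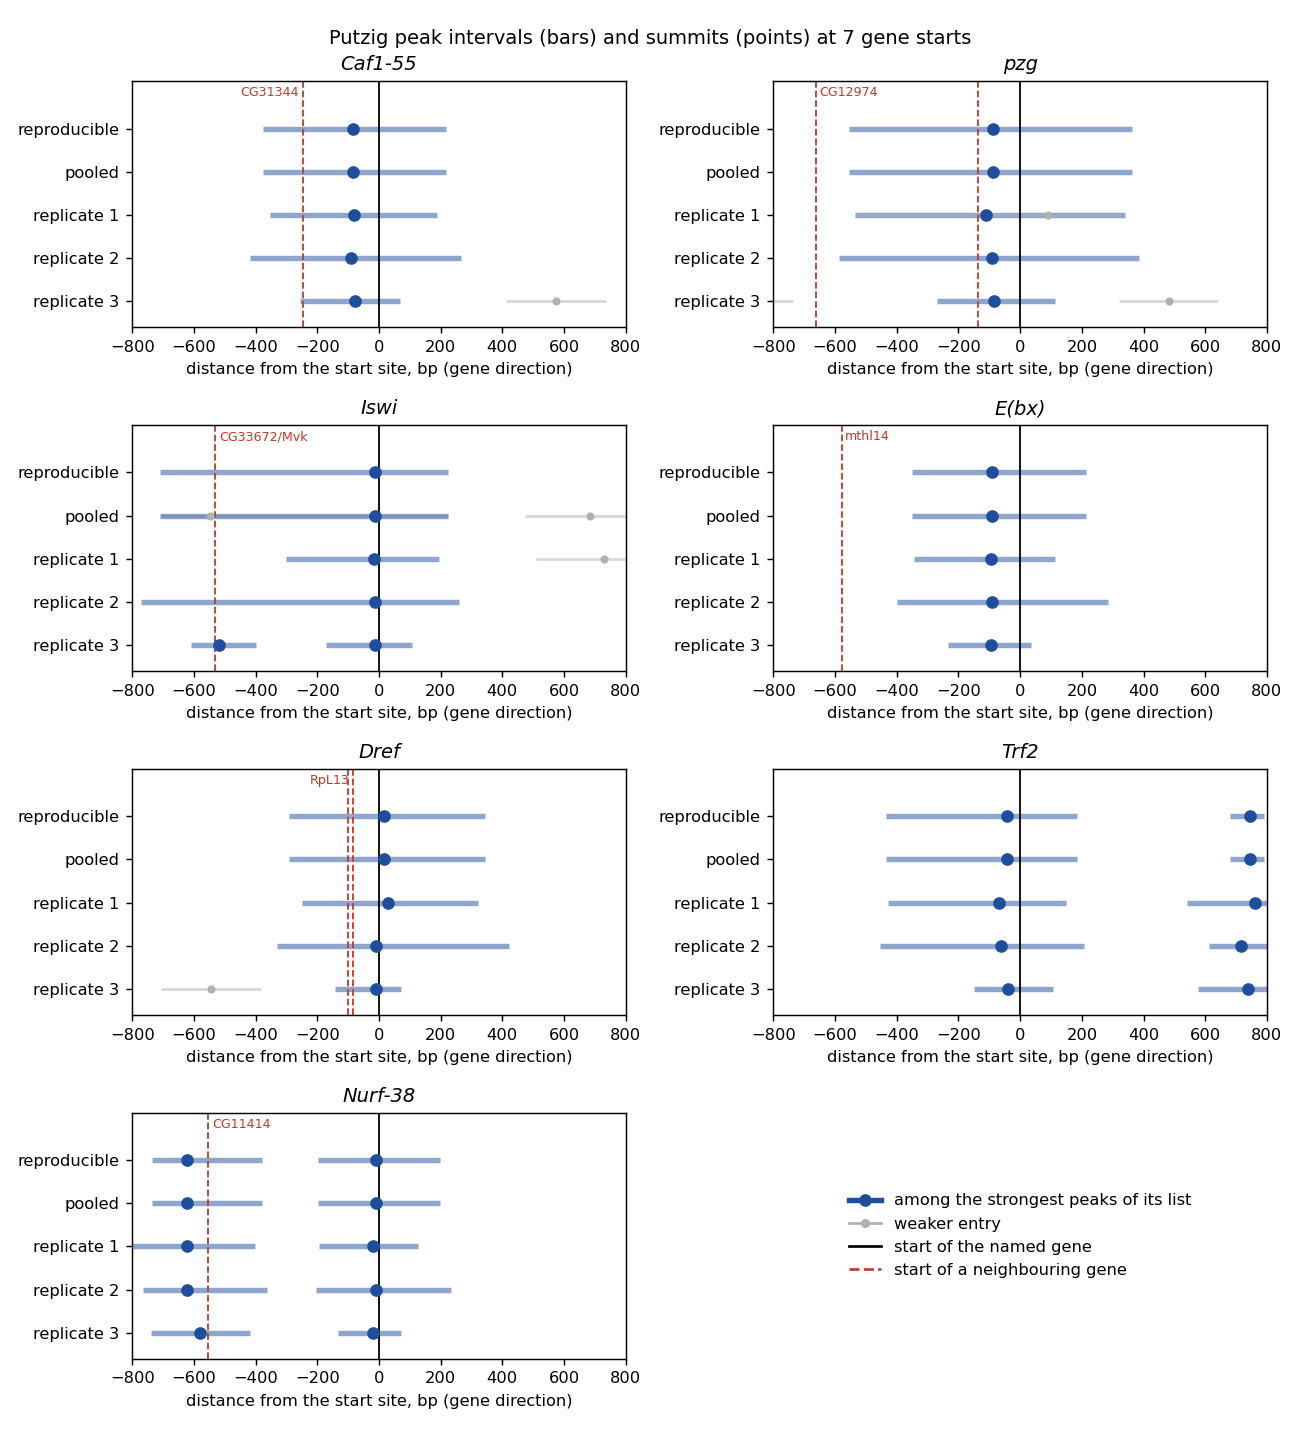
Peak intervals (bars) and summits (points) in the 5 lists by distance in the direction of transcription (bp) from each gene's start nearest its reproducible summit. Entries are blue where among the 6522 strongest of their list and grey where weaker. In every list a blue summit of each gene lies within 112 bp of the black start line, pzg has a second, grey one there in replicate 1, red dashed lines mark starts of neighbouring genes, and further blue entries stand 746 bp into Trf2, near the start of CG11414 and, in replicate 3, near that of Mvk and CG33672.

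Trf2 was bound at its first start, and the other reproducible summits in its body stood at starts of lawc. Trf2 (FBgn0261793, X from 8409272 to 8433011, plus strand) has 6 annotated transcripts, 4 from the start at 8409272 and 2 from a start 12093 bp further on. The peak at the first start (8408836 to 8409457, signal 1771) ranked 1878, 2108 and 1931 in replicates 1, 2 and 3, with signals of 827, 683 and 268. Its summit lay 42 bp upstream in the reproducible list and 68, 63 and 39 bp upstream in the replicates, a mean offset of -56.7 ± 15.5 bp (SD, n = 3). This place is also inside the 3′ UTR of lawc (leg arista wing complex), a gene on the other strand that overlaps the Trf2 promoter.

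The downstream Trf2 start had no reproducible summit. The pooled list held an entry there of rank 12607, and replicates 1 and 2 had entries of rank 14859 and 9475, below the 6522 strongest, while replicate 3 listed none. The deposited −log10 q values of these entries were 0.835 in the pooled list, 0.481 in replicate 1 and 3.58 in replicate 2. The replicate 2 value is below the lowest among that replicate's own 6522 strongest peaks (4.25). It is above the lowest among the 6522 strongest of replicate 1 (3.41) and of replicate 3 (1.98). The highest values of the lists also differ, 4.09, 4.25 and 3.98 in replicates 1, 2 and 3. A replicate 2 entry within Dref, of rank 9562, had the same value of 3.58. The replicates thus differed at the downstream Trf2 start, and the lists include background entries. Among the 917 bound protein-coding genes with a start more than 1000 bp downstream of the first, 67.3% were bound near the first start only, as Trf2 was, 15.2% at both and 17.6% downstream only. Both remaining reproducible summits within Trf2 lay in its introns. The summit at 8410018 was 746 bp into Trf2 and 80 bp inside lawc from the start used by 3 of its 4 transcripts. It ranked 5578 in the reproducible list and 6074, 5649 and 4595 in the replicates. The summit at 8411661 was 3 bp upstream of the other lawc start and ranked 5792, with 5899, 6704 and 5685 in the replicates. The replicate 2 entry of the latter fell outside that replicate's 6522 strongest. A peak carries no strand, so these summits cannot be assigned to either gene from the data. None of the other 6 genes held a reproducible summit in its body more than 250 bp from a start.

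**Figure D4:**
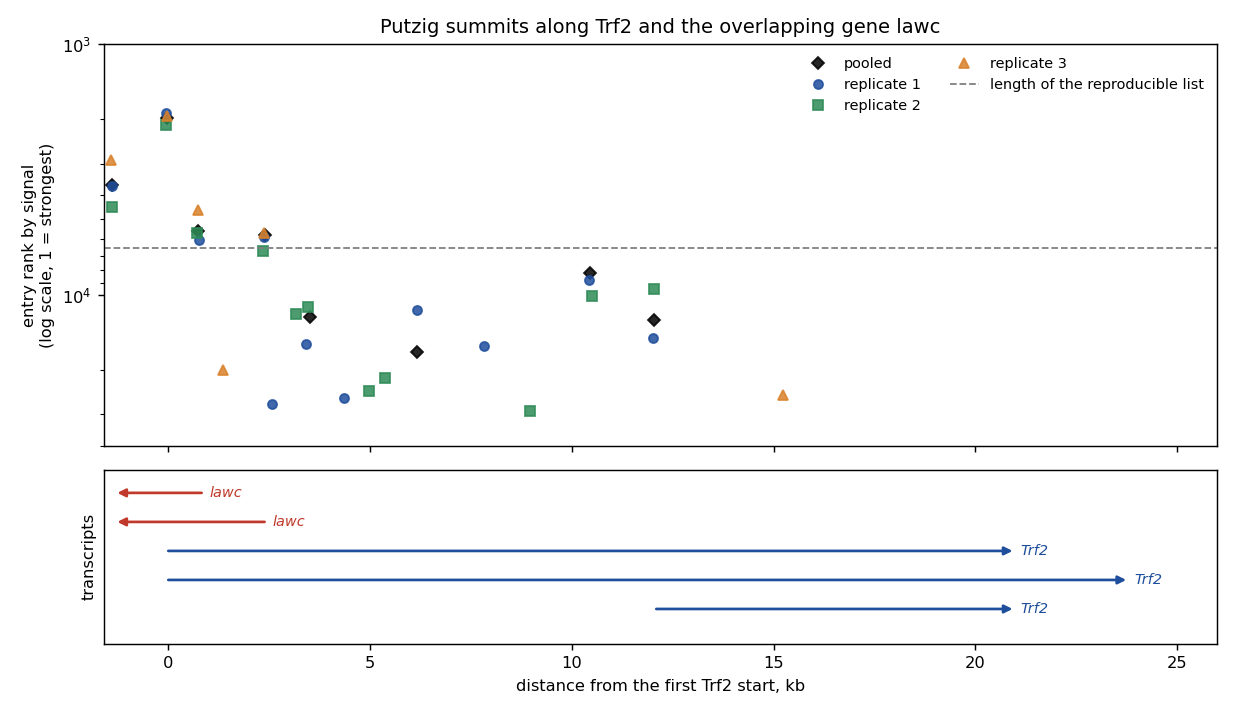
Rank of every entry of the pooled and replicate lists (vertical log axis, strongest at the top) by distance from the first Trf2 start (kb), over the transcripts of Trf2 (blue) and lawc (red). Entries at the first Trf2 start rank 1878 to 2108, those at the lawc starts near the dashed line at 6522, and those further into Trf2 below it. The entries at the left edge, ranked 2894 to 4469, lie past the 3′ end of lawc.

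Among the NURF genes, the histone-binding subunit gene Caf1-55 had the strongest peak. Caf1-55 (FBgn0263979, 3R from 15225576 to 15227564, plus strand) had a peak from 15225201 to 15225793 with a signal of 5264, and ranked 164, 130 and 280 in replicates 1, 2 and 3, with signals of 2362, 2157 and 775. It stood among the 280 strongest peaks of every replicate. Its summits lay 82, 90 and 76 bp upstream of the start, a mean offset of -82.7 ± 7.02 bp (SD, n = 3). The start of CG31344, 247 bp away on the other strand, was 164 bp from the reproducible summit. That is within 250 bp, so the peak cannot be assigned to Caf1-55 alone. The protein is shared, since Caf1-55 is also a subunit of chromatin assembly, histone deacetylase and Polycomb complexes.

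E(bx), the gene of the subunit by which NURF is identified, had the smallest SD of rank of the 7, 0.179 percentage points of the list. That SD is not scaled to the mean rank, which was 1.80% for E(bx) and 6.57%, with an SD of 0.401, for Trf2. E(bx) (FBgn0000541, 3L from 233926 to 246912, minus strand) starts all 9 of its transcripts at 1 site. Its peak (246699 to 247263, signal 3566) ranked 526, 497 and 601 in replicates 1, 2 and 3, with signals of 1589, 1427 and 559. Its summits lay 95, 90 and 95 bp upstream, a mean offset of -93.3 ± 2.89 bp (SD, n = 3). The nearest other start, that of mthl14, was 489 bp from the summit, so this peak stood at 1 gene by the 250 bp rule.

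Iswi, the ATPase gene, had a summit almost on its start. Iswi (FBgn0011604, 2R from 12636671 to 12640628, plus strand) ranked 592, 580 and 374 in replicates 1, 2 and 3, with signals of 1506, 1322 and 693. Its summits lay 17, 14 and 12 bp upstream of the start, a mean offset of -14.3 ± 2.52 bp (SD, n = 3). The reproducible peak, from 12635962 to 12636894 with a signal of 3488, was 933 bp wide and reached over the start shared by Mvk and CG33672 on the other strand, 517 bp from the summit.

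Nurf-38, the pyrophosphatase gene, had the weakest peak of the 7 in the reproducible list and in replicates 1 and 2, and Dref had it in replicate 3. Nurf-38 (FBgn0016687, 2R from 24558967 to 24561087, minus strand) has starts at 24561053 and 24561087, which 1 summit served by the 250 bp rule, 9 bp upstream of the former and 25 bp inside the latter. Its peak (24560855 to 24561249) ranked 3170, 3602 and 1936 in replicates 1, 2 and 3, with signals of 506, 394 and 267. It ranked higher in replicate 3 than in the others, the list in which pzg, Dref, Caf1-55 and E(bx) ranked lowest. The summits lay 18, 8 and 18 bp upstream of the former start, a mean offset of -14.7 ± 5.77 bp (SD, n = 3). They lay 16, 26 and 16 bp inside the start at 24561087, which was the nearer in replicates 1 and 3. Their side therefore depends on the start used. A separate reproducible summit of rank 5092 stood 68 bp inside the neighbouring gene CG11414, and it ranked 5043, 5856 and 4138 in the replicates.

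The genes around these proteins were read from 3 lists. Of 15 genes of other ISWI and Caf1-55 complexes, 13 were bound (86.7%), with a median signal of 2470. The strongest were simj, a subunit of the nucleosome remodelling and deacetylase complex (signal 4811), esc, a Polycomb repressive complex subunit (4739), and CG8677, the Iswi partner Rsf-1 (2682). The weakest bound gene was E(z), the histone methyltransferase of the same Polycomb complex (440). Of 12 genes of the TATA-binding protein family and general transcription factors, 10 were bound (83.3%), with a median signal of 1699. TfIIA-S, the small subunit of TFIIA, had the strongest peak (7884, ranking 38, 39 and 43 in the replicates), followed by TfIIEalpha (5151) and the TFIIA large subunit gene TfIIA-L (3665), and TfIIEbeta had the weakest (878). Of 10 genes generally described as Dref targets, 9 were bound (90.0%), with a median signal of 3251. Orc5 (4660) and PolA2 (4229), both replication genes, and the cyclin gene CycA (4146) were the strongest, and Orc2 (1304) the weakest. All 3 lists stood above the 42.6% of all protein-coding genes, and their medians above the 1517 of all bound protein-coding genes. These are descriptions of lists put together with earlier results of these data known.

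The DRE set the list of Dref targets apart in count only. It occurred at 6 of the 9 bound Dref targets, at 1 of the 10 bound general factor genes (Tbp, the TATA-binding protein), at 0 of the 13 bound genes of the ISWI and Caf1-55 complexes and at 2 of the 7 genes described above, against 17.4% of bound protein-coding genes. The list consists of genes described for their DREs, so its count was to a degree fixed by the choice, and the differences between lists were not tested.

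**Figure D5:**
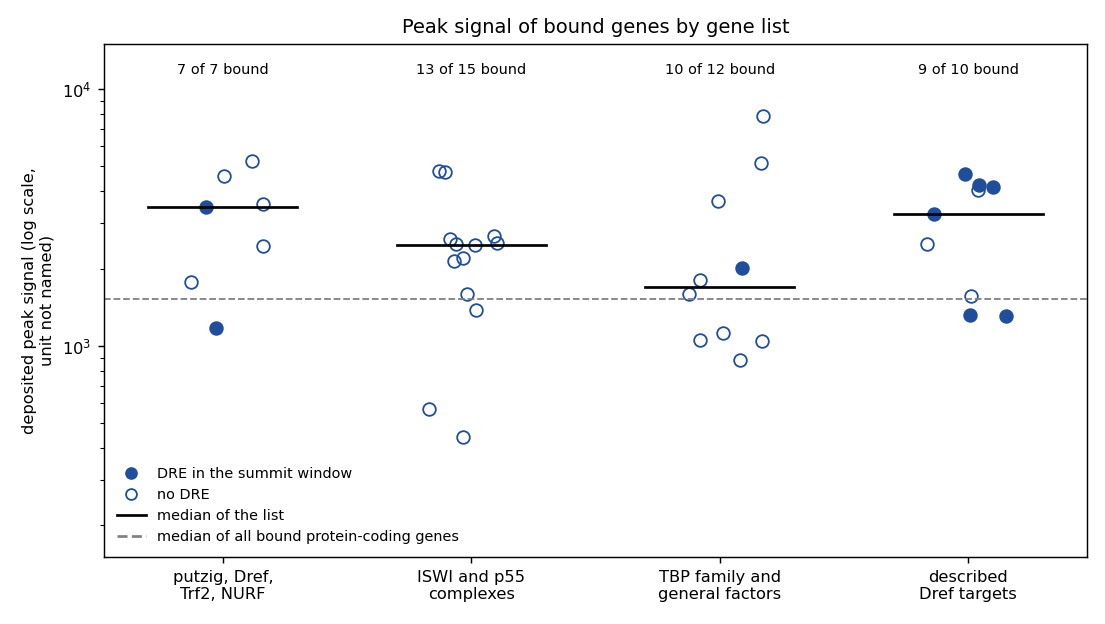
Deposited signal in the reproducible list (vertical log axis) of each bound gene of the 4 lists, filled where the summit window holds a DRE, with the median of each list (solid bar) and of all bound protein-coding genes (dashed, 1517). The number bound stands above each list: 7 of 7, 13 of 15, 10 of 12 and 9 of 10.

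The genes of the lists that were not bound numbered 5. Near 3 of them a summit lay just outside the 250 bp limit: mtSSB, the mitochondrial single-stranded DNA-binding protein gene, had one of signal 1427 at 254 bp upstream, TfIIB one of 1145 at 365 bp upstream, and the deacetylase gene HDAC1 one of 283 at 322 bp inside and one of 1560 at 529 bp upstream. Single replicates did have entries within 250 bp of these starts. For mtSSB they ranked 3269 and 2119 in replicates 1 and 2. For TfIIB they ranked 6592, 5264 and 4452 in replicates 1, 2 and 3, the last 2 among the 6522 strongest, and for HDAC1 1 entry ranked 5322 in replicate 3. The nearest summit to tou, a bromodomain gene with 4 starts, was 541 bp from one of them, and entries within 250 bp ranked 11914 in replicate 2 and 6373 in replicate 3. TfIIA-S-2, a second gene for the small TFIIA subunit, had its nearest reproducible summit 15119 bp away and an entry of rank 19512 within 250 bp in replicate 1.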

How the data were processed

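Putzig ChIP-seq peak lists from 3 embryo replicates were used: 1 list per replicate, 1 from all replicates pooled and 1 of peaks kept as reproducible by the irreproducible discovery rate. Per the deposited notes, coordinates are dm6 and each list came from the alignments and a control alignment. Aligner and peak caller: not given in the sources used here. Peak signal, as deposited, has no named scale and was used only within a list. Every reproducible entry has the same deposited −log10 q value, 4.12, so q was not used for ranking. Chromatin was sheared to 200 to 800 bp, per the labels. No list gives read depth, so depth and counting error per peak are unknown, and precision is the spread over replicates. Nothing in the labels beyond the biological replicate numbers says how the embryos were collected.

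The antibody label set the group, and the descriptions gave each replicate number. TSSs came from Ensembl release 115, sequence from the RefSeq genome, where ATG was read at 99.9% of 16213 start codons. A peak's replicate value is the strongest summit within 250 bp of the start. The 6522 strongest peaks of a replicate match the reproducible list in length. The reproducible list is not independent of the replicates, since it was derived from them. Motifs were counted on both strands, 100 bp to each side of a summit. Assignment and motif search were tested on simulated data (Python 3.11.15, numpy 2.4.6, pandas 2.3.3, scipy 1.17.1). The 7 genes and the 3 lists were chosen with earlier results of these data known. Genes named from a list are its 3 strongest bound genes, its weakest and all unbound ones. Tbp is named in addition, as the only general factor gene with a DRE, and was chosen after its values were seen. Alternatives covered the TSS window, the start used, the peak set, the ranking, the motif window and leaving out each replicate.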

Additional observations from a re-analysis of the deposited data

How the results depend on the processing

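All 7 genes stayed bound under 13 of 13 alternatives of window, start, peak set and replicate left out, and 8 of the 9 starts stayed bound under the 12 alternatives run for starts. The background moved more: with peaks above the median signal, 3950 protein-coding genes were bound (28.3%), against 5939. Leaving out 1 replicate gave 5459 to 5761. The mean Dref offset ran from -9.00 to 10 bp when 1 replicate was left out, changing sides of the start. The share of summit windows with a DRE was 10.9% with 50 bp and 18.5% with 250 bp to each side, and 2 of 7 genes held one at both widths. With ATCGATA in its place, an alternative chosen after seeing the data, these values were 26.6% and 4 genes. Every list count stayed within 1.5 times its value. The lists are cut by rank and carry no depth, so a start with no entry is not shown to lack putzig. The downstream Trf2 start was listed in the pooled list and in replicates 1 and 2, but not among the strongest of any list. No paired analysis was possible because the study has 1 group and no contrast.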

Other observations

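The interval at Iswi was resolved differently by the replicates. In replicate 3 a separate summit stood 11 bp upstream of the start shared by CG33672 and Mvk, the mevalonate kinase gene, with a rank of 1903 and a signal of 271.5. Replicate 2 covered both starts with 1 interval of 1032 bp and listed a single summit, at Iswi. Replicate 1 listed no entry at the start shared by CG33672 and Mvk. In the pooled list the second summit of the same interval ranked 10940, below the reproducible list. The start shared by CG33672 and Mvk is therefore not bound by the rule used here. Replicate 3 alone ranks that site next to the Nurf-38 peak, at 1903 against 1936. Mvk has a further annotated start at 12635682, for which no call is given here. Why the replicates differ was not tested.

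Within the gene bodies, more than 250 bp from the gene's own starts, the replicate lists held further entries of any rank. Trf2, the longest of the 7 genes, had 8, 8 and 4 in replicates 1, 2 and 3, those at the lawc starts included. E(bx), the next longest, had 1, 0 and 0. Among the shorter genes pzg and Dref had 1, 2 and 2 each, Iswi 2, 2 and 1, Nurf-38 0, 1 and 0, and Caf1-55 0, 1 and 2. These counts were not scaled by gene length.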
